A study of Mus musculus with 2 samples.

Results

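Among the droplets captured from sorted plantaris cells, 150 of 4954 carried adult muscle fibre transcripts in which Myh1, the myosin heavy chain of type IIX fibres, led the other fast isoforms. These Myh1-dominant droplets were chosen by measured values. A droplet entered when under 20% of its unique molecular identifiers (UMIs, 1 per captured transcript) were mitochondrial, when Acta1 and Ckm together made up at least 2% of its UMIs, and when Myh1, Myh2 and Myh4 together had at least 3 UMIs and more than Myl4 and Myh3. Of these fibre droplets, those with more Myh1 UMIs than Myh2 UMIs and than Myh4 UMIs were kept, and ties were left out. The sham library held 135 of them among 1100 droplets, and the mechanical overload (MOV) library held 15 among 3854.

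Both libraries came from Pax7rtTA; TRE-H2B-GFP mice of about 26 weeks, in which the Pax7 promoter drives a doxycycline-dependent activator and so a nuclear GFP label in muscle stem cells (MuSCs). All drank doxycycline at 2.0 mg/mL for 2 weeks, in water with 2% sucrose by the labels. The labels describe each library as from a mouse and the study's methods name several mice per group, so how many mice a level or share stands for is not known here. They then had either synergist ablation, which overloads the plantaris (MOV), or sham surgery, and the muscle was collected 5 days later. Cells were sorted by VCAM, CD31, CD45 and SCA1 staining and run on the 10x Genomics 3′ assay. With a single library for each surgery there was no replicate, surgery and library cannot be told apart, and no p-value was computed. Intervals are 95% intervals of the counts, and they cover counting error only, not the spread between droplets or mice.

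Adult mouse fast fibres express mainly 1 of 3 myosin heavy chains (MyHC). Type IIB fibres with Myh4 are fast and glycolytic, type IIA fibres with Myh2 are the most oxidative of the fast fibres, and type IIX fibres with Myh1 are placed between them. Hybrid fibres with a neighbouring pair of isoforms are common in rodent muscle. The genes lie next to each other in the fast MyHC cluster, where long non-coding RNAs are transcribed from the opposite strand.

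In the GRCm38 build the cluster is on chromosome 11, plus strand, with Myh2 at chr11:67171027-67197517, Myh1 at chr11:67200052-67224575 and Myh4 at chr11:67238029-67260446. The promoter windows of all 3 genes are shown because the droplets are defined by which of these genes leads. Each runs from 250 bases before to 50 bases after the RefSeq gene start (RefSeq, GRCm38.p6, plus strand), and all 3 genes were matched by symbol. For Myh1 and Myh4 this RefSeq start differs from the first base of the coordinates above. The windows are chr11:67199852-67200151 for Myh1, chr11:67170777-67171076 for Myh2 and chr11:67237562-67237861 for Myh4. Capitals mark the longest run that the 3 windows share.
Myh1: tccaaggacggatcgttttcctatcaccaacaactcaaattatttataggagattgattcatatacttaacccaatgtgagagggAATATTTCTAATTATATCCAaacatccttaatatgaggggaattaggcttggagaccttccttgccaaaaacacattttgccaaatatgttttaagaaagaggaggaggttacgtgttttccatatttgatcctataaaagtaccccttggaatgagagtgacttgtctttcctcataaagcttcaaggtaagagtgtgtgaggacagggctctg
Myh2: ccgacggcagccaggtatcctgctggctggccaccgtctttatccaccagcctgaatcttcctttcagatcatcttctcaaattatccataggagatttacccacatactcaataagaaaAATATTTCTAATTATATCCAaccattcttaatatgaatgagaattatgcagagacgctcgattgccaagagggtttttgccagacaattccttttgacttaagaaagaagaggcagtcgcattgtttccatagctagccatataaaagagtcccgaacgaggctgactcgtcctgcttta
Myh4: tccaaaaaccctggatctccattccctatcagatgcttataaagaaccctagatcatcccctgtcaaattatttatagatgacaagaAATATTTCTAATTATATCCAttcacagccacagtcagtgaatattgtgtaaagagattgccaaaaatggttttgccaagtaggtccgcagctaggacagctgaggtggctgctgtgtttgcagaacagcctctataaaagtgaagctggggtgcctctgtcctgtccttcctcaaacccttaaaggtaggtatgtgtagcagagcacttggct

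The shared run, AATATTTCTAATTATATCCA, is 20 bases long and was found in 3 of 32851 mouse promoter windows of the same length (0.00913%). It starts 165 bases before the gene start in Myh1, 130 before Myh2 and 163 before Myh4. In global alignments of the whole windows, gaps counted, 55.1% of positions were identical between Myh1 and Myh2 and 59.0% between Myh1 and Myh4. Motifs were searched on both strands. The sequence TATAAA is in 13.6% of all windows and in all 3 of these. On the forward strand it lies 32 bases before the start in Myh1. The only match in Myh2 lies 11 bases after the start used here. Myh4 has 2 forward matches, and the first lies farther before the start than that of Myh1 and ahead of the shared run. The other Myh4 match lies after the shared run, as do the forward matches of Myh1 and Myh2. The MEF2 motif is in 3.19% of windows and was found for Myh1 and Myh4, and the E-box CANNTG, in 72.3% of windows, was found for Myh4 and not for Myh1 or Myh2. A match is a description of these letters and says nothing on binding.

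The deposited UMI totals were 7302661 for sham and 88498487 for MOV. The members held 864916 UMIs in sham, with 503 in the shallowest droplet, a median of 4300 and 33812 in the deepest. They held 72299 UMIs in MOV, from 519 to 25207 with a median of 1776, and the 2 deepest MOV members alone held 48041 of these (66.4%). The sham members therefore carry nearly all the detail, and values of the MOV members lean on few droplets.

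The libraries shared 44 cell barcodes, and 1 of the 15 MOV members was the shallower droplet of such a pair, with 695 UMIs against 33812 in a sham Myh1-dominant droplet. Of the 9 Myh4-dominant MOV droplets, 8 were the shallower droplet of a shared barcode, as was 1 of 8 Myh2-dominant MOV droplets. In 39 of the 44 pairs the MOV droplet was the shallower, and no sham fibre droplet was. MOV results are therefore given with and without these droplets where they rest on them.

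Myh1-dominant droplets made up 28.1% of 481 sham fibre droplets (interval 24.1% to 32.3%), beside 59.9% Myh4-dominant, 10.8% Myh2-dominant and 6 ties. In MOV they were 15 of 33 fibre droplets (45.5%, 28.1% to 63.6%), beside 9 Myh4-dominant, 8 Myh2-dominant and 1 tie. Without the shallower droplets of shared barcodes, the MOV share was 14 of 23 (60.9%, 38.5% to 80.3%), and 1 Myh4-dominant and 7 Myh2-dominant droplets were left. Of all droplets in the library, the members were 12.3% in sham (10.4% to 14.4%) and 0.389% in MOV (0.218% to 0.641%). The sort selected for MuSCs, so these shares describe what passed the gate and not the fibres of the muscle.

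The labels call the cells muscle stem cells, but Pax7 and Vcam1 had no UMI in any of the 150 members. No member had a UMI of Pdgfra, Ptprc or Pecam1, which mark fibro-adipogenic, immune and endothelial cells. Other markers of these types were found. The MuSC list had 82 UMIs in 11 of 135 sham members, 61 of them of Apoe, and 8 UMIs in 5 of 15 MOV members. Fibro-adipogenic markers had UMIs in 7 sham and 12 MOV members, immune markers in 2 and 6, and endothelial markers in 1 and 0. Malat1, a nuclear-retained RNA found in nearly every nucleated cell, had a UMI in 24 of 135 sham members (17.8%) and 7 of 15 MOV members, beside 48.1% of the other sham droplets and 91.5% of the other MOV droplets. A few droplets held most of it, since 5 sham members had 98.9% of its 2159 UMIs. Whether members are fibre fragments, fibre RNA or whole cells was not tested, and they are called droplets here.

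Members lay near some of the limits of the rule. The lowest share of Acta1 and Ckm among members was 3.05% in sham and 4.24% in MOV, and the highest mitochondrial share was 15.8% and 9.43%. Just inside the rule, 11 sham and 4 MOV members led by 1 UMI, and 11 and 5 had exactly 3 MyHC UMIs. Just outside it, 16 sham and 6 MOV droplets with Myh1 in the lead had only 1 or 2 MyHC UMIs, and 6 and 1 were over the mitochondrial limit. Another 4 MOV and 0 sham droplets led by Myh1 were left out because Myh1, Myh2 and Myh4 together did not exceed Myl4 and Myh3. A further 5 sham droplets missed the Acta1 and Ckm minimum, the nearest at 1.74%, and 45 MOV droplets missed it, the nearest at 0.540%.

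Most members held a single isoform or a single neighbouring pair. In sham, 56 of 135 had UMIs of Myh1 alone, 53 had Myh1 with Myh4, 25 had Myh1 with Myh2, and 1 had all 3. The Myh1 share of the MyHC UMIs ran from 51.6% to 100% with a median of 92.3%, on a median of 11 Myh1 UMIs per droplet and at most 488. Among the 49 sham members with at least 20 MyHC UMIs, 11 had Myh1 alone, while 24 had Myh4 beside it and 15 had Myh2. Across all 481 sham fibre droplets, 162 had UMIs of both Myh1 and Myh4 and 46 of both Myh1 and Myh2, and 13 had Myh2 with Myh4, the pair that is not next to each other in the fibre-type order. The slow isoform Myh7 had no UMI in any fibre droplet. In MOV, 2 of 15 members had Myh1 alone, 6 had Myh4 beside it, 6 had Myh2 and 1 had both, with a median Myh1 share of 76.1% and a lowest share of 61.5%.

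The 3 genes are near copies in places, which bears on these counts. Of 451 windows of 50 bases in the last 500 bases of the Myh1 transcript, 16.0% occur unchanged in Myh2 and 7.54% in Myh4. Reads within them could not be told apart by sequence, and how far this moves the isoform counts was not tested. The plot of isoform shares by droplet shows the Myh4 side, the pure droplets and the Myh2 side in turn.

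**Figure D1:**
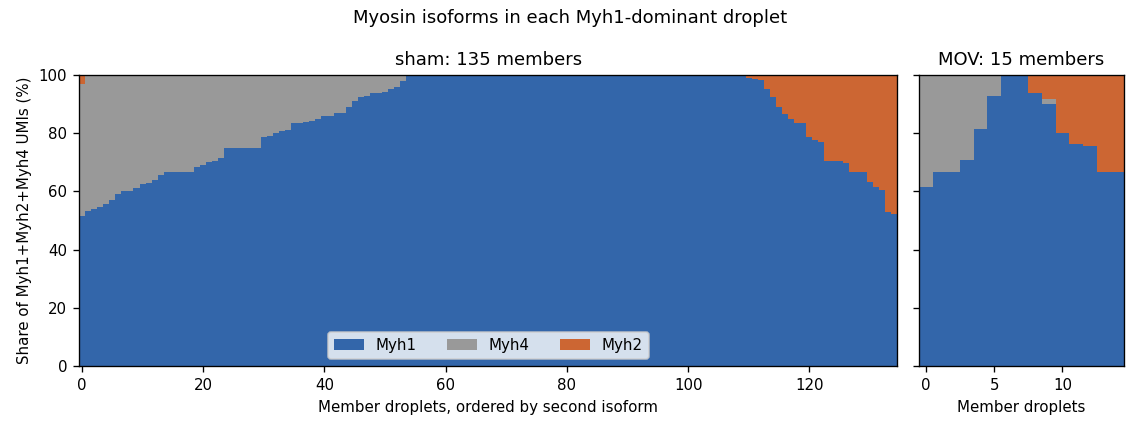
Share of Myh1, Myh4 and Myh2 among the UMIs of the 3 genes (vertical axis, %) in each of the 135 sham and 15 MOV Myh1-dominant droplets (horizontal axis, ordered by the second isoform). The lowest Myh1 share is 51.6% in sham and 61.5% in MOV, 56 sham droplets show Myh1 alone, and 1 sham droplet shows all 3 isoforms.

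Of the genes named as markers of these droplets, Mb, Cox8b, Myot and Hspb7 were not part of the rule, and none of them had its highest level there. Mb, the oxygen-binding protein myoglobin, was at 884 CPM (UMIs of the gene per 1000000 UMIs of the class) over the Myh4-dominant, 7435 over the Myh1-dominant and 12498 over the Myh2-dominant sham droplets. Single droplets overlapped between the classes: Mb ran from 0 to 8981 CPM with a median of 331 in Myh4-dominant droplets, from 0 to 25610 with a median of 6577 in Myh1-dominant ones, and from 8448 to 32417 with a median of 12552 in Myh2-dominant ones. Cox8b, a subunit of cytochrome c oxidase, was at 2362, 3751 and 5925 CPM in the same order, and Myot, the Z-disc protein myotilin, at 704, 1199 and 1465 CPM. Hspb7, a small heat shock protein of striated muscle, was at 355, 756 and 1056 CPM. All 4 levels thus lay between those of the neighbouring classes, which the word intermediate in the working name describes, and the 4 genes do not set the Myh1-dominant droplets apart from Myh2-dominant ones.

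Splitting the sham members by their second isoform gave a graded series that ran through the members themselves. Mb was at 4801 CPM in the 54 members with Myh4, at 7306 in the 56 with Myh1 alone, and at 11960 in the 25 with Myh2. Fabp3, which carries fatty acids in muscle, was at 406 CPM in Myh4-dominant droplets, then at 1631, 2236 and 3714 over the 3 kinds of member, and at 8514 in Myh2-dominant droplets. Myoz2, the calsarcin of slow and oxidative muscle, was at 14.2, 52.6, 187, 534 and 1919 CPM. Each of these steps between neighbours was larger than its counting intervals, except that the 2 highest Mb levels were close, at 11960 (11516 to 12417) against 12498 (12172 to 12830).

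Genes of fast glycolytic fibres ran the other way. Pvalb, the calcium buffer parvalbumin, was at 6651, 3128, 1897, 757 and 110 CPM from the Myh4-dominant to the Myh2-dominant end. Actn3, the fast-fibre alpha-actinin, was at 3539, 1536, 1034, 210 and 8.95 CPM over the same series. Cox8b followed Mb, at 3278, 3579 and 4729 CPM over the kinds of member, and the intervals of the first pair overlapped. Myot (1163, 1339 and 1102 CPM) and Hspb7 (889, 636 and 669 CPM) had no such order within the members. Median depth also differed along the series, from 3386.5 UMIs in Myh4-dominant droplets to 4446, 3474.5 and 7252 in the kinds of member and 5470 in Myh2-dominant droplets, and its part was not tested.

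**Figure D2:**
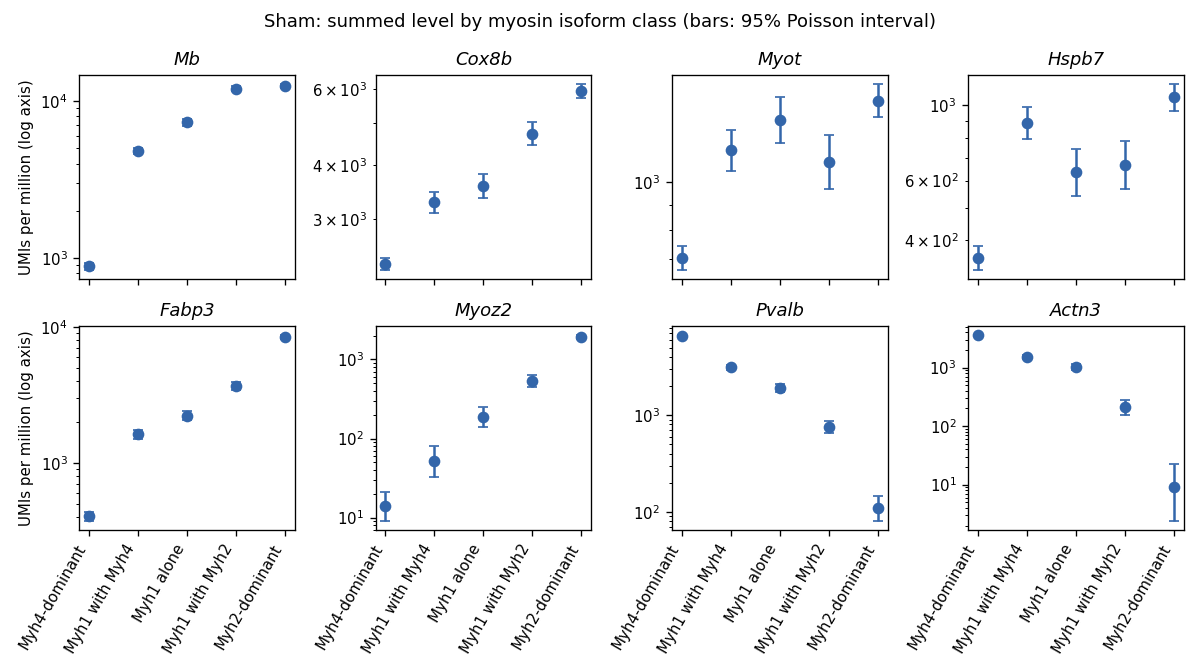
Level of 8 genes in sham (vertical axes, CPM on a log scale) summed over 288 Myh4-dominant droplets, 54 members with Myh1 and Myh4, 56 with Myh1 alone, 25 with Myh1 and Myh2, and 52 Myh2-dominant droplets, with 95% Poisson intervals. Mb goes from 884 to 12498 and Actn3 from 3539 to 8.95, while Myot and Hspb7 show no order among the 3 kinds of member.

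Some whole gene lists, as shares of all UMIs, were graded along the same series and others were not. Nuclear-encoded subunits of the respiratory chain took 8.36% of UMIs in Myh4-dominant droplets, 12.8%, 13.3% and 16.0% in members with Myh4, with Myh1 alone and with Myh2, and 17.3% in Myh2-dominant droplets. Genes of fat oxidation and oxygen supply took 0.318%, 0.997%, 1.34%, 2.14% and 2.86% in that order. Mb and Fabp3, shown above as single genes, gave most of this list's UMIs in every class but the Myh4-dominant one. The series of the list therefore leans on them. Calcium-handling genes, a list that holds Pvalb beside genes of the sarcoplasmic reticulum, took 1.63%, 1.12%, 0.970%, 0.659% and 0.450%. Pvalb alone was at 6651 of the list's 16287 CPM in Myh4-dominant droplets and at 110 of 4500 CPM in Myh2-dominant ones. Glycolysis and glycogen genes took 3.69%, 3.76%, 3.45%, 2.61% and 1.94%, with the lowest shares in the classes with Myh2. Z-disc and small heat shock genes had no single direction, at 2.03%, 3.14%, 2.52%, 2.69% and 3.50%. Neither had the mitochondrially encoded genes, at 1.59%, 1.40%, 2.16%, 1.51% and 1.17%.

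**Figure D3:**
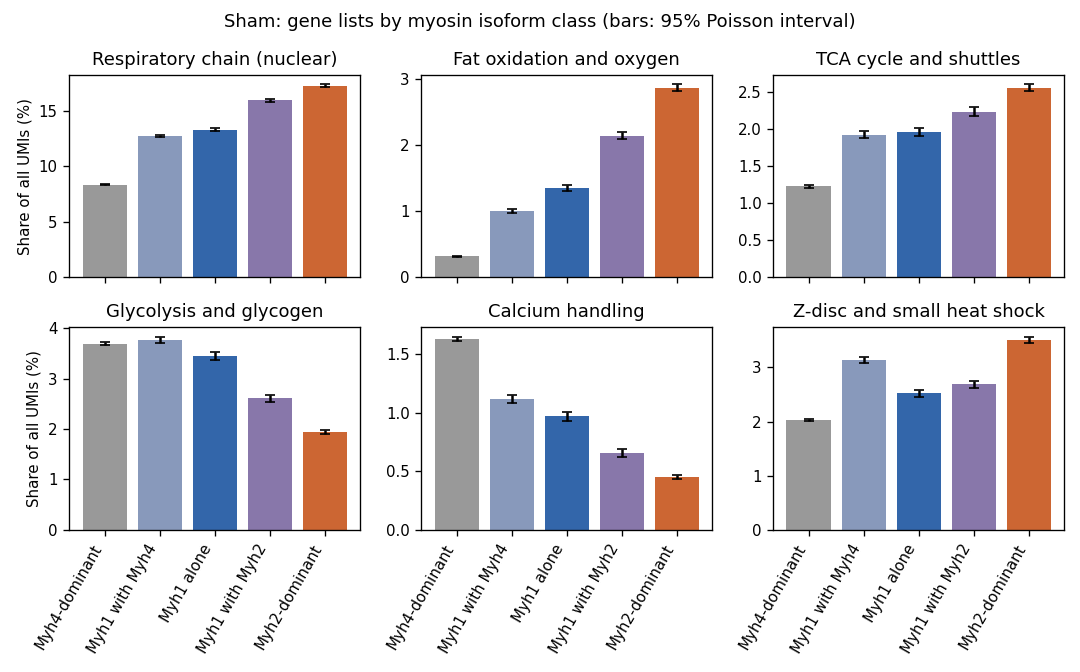
Share of all UMIs (vertical axes, %) taken by 6 gene lists in the same 5 sham classes, with 95% Poisson intervals on the summed counts. The respiratory chain goes from 8.36% to 17.3% and calcium handling from 1.63% to 0.450%, and glycolysis is lowest, at 1.94%, in the Myh2-dominant class.

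Thinning every sham fibre droplet to 500 UMIs set all of them to 1 depth, and the order of the classes stayed for the genes given here. A Mb UMI was then found in 88.9% of members, 28.8% of Myh4-dominant and 100% of Myh2-dominant droplets, against 99.3%, 64.6% and 100% before thinning. Fabp3 was found in 56.3%, 18.8% and 94.2%, and Pvalb in 60.7%, 92.0% and 11.5%. As background, 20 sham droplets with at least 3 UMIs of Pdgfra, which marks stromal cells, had Mb in 30.0% and Pvalb in 35.0% of droplets at a median of 12414.5 UMIs, and in none after thinning.

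Across the 481 sham fibre droplets, the genes whose share of a droplet's UMIs followed its Myh1 share most closely were Fhl1 (Spearman rho 0.49), Mb (0.48) and Tpm2 (0.40), out of 2331 genes. Atp5g1, Actn2, Fabp3, Lmcd1, Cox5b, Cox7b and Cryab came next, at 0.33 to 0.29. Fhl1, a LIM protein of the sarcomere, and Tpm2, the beta-tropomyosin, thus stood beside myoglobin. The most negative values were those of Actn3, Pvalb and Tpm1, the alpha-tropomyosin, all at −0.36. Of the 481 droplets, 288 were Myh4-dominant and 52 Myh2-dominant, so a low Myh1 share mostly meant a Myh4-dominant droplet. Mb and Fabp3 had their highest levels in the Myh2-dominant class and not in the members. All droplets come from 1 library and share its depth range, the Myh1 share is itself bounded by the rule, and the correlations are a description.

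Against Myh4-dominant droplets, the sham members had more RNA for fat use, oxygen storage and respiration and less for Pvalb and other genes of calcium handling. A gene was called here when it had at least 20 UMIs over both classes, UMIs in at least 10 droplets of the class where it was higher, a difference of at least 2-fold, and an interval clear of no change. Of 5229 genes, 254 were called higher in members (4.86%) and 165 lower (3.16%), with a median log2 ratio of 0.05 over all genes. With every droplet given the same weight (the mean of droplet CPM) the balance turned, at 380 higher and 620 lower. The genes of the rule (Myh1, Myh2, Myh4, Myl4, Myh3, Acta1 and Ckm) were left out of these counts.

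Ldhb, the lactate dehydrogenase subunit of oxidative tissue, had the highest ratio among the 10 leading higher genes. It was found in 47 of 135 members and 7 of 288 Myh4-dominant droplets, at 240 against 5.67 CPM, a log2 ratio of 5.41 (4.50 to 6.49). Myoz2 was higher by 3.95 and Mb by 3.07 (2.99 to 3.15) on the log2 scale, the latter an 8.41-fold difference. Cd36 and Lpl, which bring fatty acids into the fibre, were higher by 3.67 and 3.45, Fhl1 by 2.57 and Fabp3 by 2.54. Gm15543, a predicted gene, was higher by 4.23 on 46 UMIs in 26 members. Malat1 was also higher, by 3.17, but rested on the few droplets described above.

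Of 24 genes of fat oxidation and oxygen supply, 16 were called higher and none lower, with a median log2 ratio of 1.20 and all 24 above 0. They included Cpt2, Acadl, Acadvl and Hadha of beta-oxidation, Plin5 of the lipid droplet and Pdk4, which restrains pyruvate oxidation. Of 20 genes of the TCA cycle and its shuttles, 6 were higher (Dlst, Got1, Got2, Idh2, Ldhb and Mdh1), with a median of 0.72. All 80 nuclear respiratory chain genes lay above 0, also with a median of 0.72, and 7 reached the 2-fold difference, among them Cox7a1 at 1.13 (1.02 to 1.25). The 13 mitochondrially encoded genes had none called and a median of 0.08. Cox8b at 0.67 (0.60 to 0.73) and Myot at 0.77 (0.65 to 0.89) had intervals clear of 0 and stayed under 2-fold, and Hspb7 passed it at 1.09 (0.93 to 1.25).

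Of 24 Z-disc and small heat shock genes, 6 were higher, namely Actn2, Ankrd2, Fhl1, Hspb6, Hspb7 and Xirp1, with a median of 0.44. Among 19 regulators of fibre type, Vgll2, a cofactor of TEAD factors, was higher by 1.78 (1.33 to 2.24), at 131 against 38.0 CPM. Maf and Mafa, transcription factors linked to type IIB fibres, were lower, with log2 ratios of −1.29 and −2.35, and Mstn, which encodes myostatin, was at −1.01. Musk, a receptor kinase of the neuromuscular junction, was called lower on 2 UMIs in the members.

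The lower genes were led by haemoglobin transcripts that lay in few droplets. Hba-a2, Hbb-bs and Hba-a1 were all called, and Hba-a2 had 1 UMI in members against 299 in 12 Myh4-dominant droplets. Smox and Amd1, both of polyamine metabolism, had log2 ratios of −2.95 and −2.44, and Amd1 was found in 53 of 135 members and 206 of 288 Myh4-dominant droplets. Mss51, a mitochondrial regulator of fast muscle, was at −2.36, and Odf3l2 at −3.53. Gdap1, Tmem100 and Gamt, the last a creatine synthesis enzyme, completed the 10 leading genes. Pvalb at −1.64 (−1.71 to −1.57), Casq1 and Mrln were the 3 of 16 calcium-handling genes called lower, and Actn3 at −1.77 and Mybpc2 at −1.55 were the 2 of 10 fast sarcomere genes. None of 19 glycolysis genes was called, with a median of −0.35.

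Summed immediate early genes also differed from the Myh4-dominant class, and here droplets with other cell types' markers moved with the result. Of 13 such genes, 10 were higher, among them Fos, Atf3 and Junb, with a median of 1.63. The list took 0.193% of summed UMIs in members and 0.0783% in Myh4-dominant droplets. In the median droplet it took 0.0400% and 0.0355%, so the summed difference leaned on some droplets. Of its 1671 UMIs in members, 1082 lay in the 54 members with Myh4. Fos had UMIs in 42 of 135 members, at 453 CPM, and in 83 of 288 Myh4-dominant droplets, at 146 CPM. At least 3 UMIs of MuSC, fibro-adipogenic, tenocyte, immune, endothelial, mural or Schwann markers were present in 19 of 135 members and 23 of 288 Myh4-dominant droplets. Without those droplets 5 immediate early genes were called and the median was 1.11, while the fat oxidation list kept 16 called genes at a median of 1.31. Thbs4, on the tenocyte list, gave 120 of that list's 131 UMIs in sham members. The part of other cells in these results was not tested.

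Against Myh2-dominant droplets the members stood on the glycolytic side. Of 3763 genes, 187 were called higher in the sham members (4.97%) and 154 lower (4.09%), with a median log2 ratio of −0.05. Both comparisons use the same member droplets and so are not independent of each other.

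Actn3 was higher by 6.86 log2 units (5.50 to 8.74), on 897 UMIs in 103 of 135 members against 4 UMIs in 4 of 52 Myh2-dominant droplets. Pvalb, at 2137 against 110 CPM, was higher by 4.29 and Mybpc2, the fast myosin-binding protein C, by 4.99. Mss51 was higher by 6.26 on 148 UMIs against 1, and Myom2 of the M-band by 3.82. Mylk4, a muscle kinase, was higher by 3.58, Rgcc by 3.97, and Cebpd, a transcription factor of the stress response, by 4.66 on UMIs in 15 members.

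By list, 6 of 19 glycolysis and glycogen genes were higher, namely Eno3, Gpd1, Ldha, Phka1, Phkg1 and Pygm, with a median of 0.78. The count was 2 without the 5% deepest fibre droplets, 3 without droplets holding other cell types' markers and 4 without the droplet richest in each gene, with medians of 0.50 to 0.75. Of 16 calcium-handling genes, 5 were higher (Cacng1, Casq1, Jph2, Pvalb and Ryr1) with all 16 above 0 and a median of 0.72. Of 6 giant and M-band genes, Myom2, Neb and Ttn were higher, and of 10 fast sarcomere genes Actn3, Mybpc2 and Myoz1. Immediate early genes had 4 of 13 called higher and a median of 0.60, and without the droplets with other cell types' markers none was called and the median was −0.02.

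Among the lower genes were genes of fat use and of oxidative or slow fibre. Of 24 fat oxidation and oxygen genes, 9 were lower and none higher, with a median of −0.88. The count was 5 without the droplet richest in each gene and 15 of 23 without droplets holding other cell types' markers. Fabp3 was at −1.85 (−1.93 to −1.77). Idh2, the mitochondrial isocitrate dehydrogenase, at −3.03 and Ldhb at −2.83 were the 2 TCA and shuttle genes called. Of the 80 respiratory chain genes, Cox8a alone was called lower, and 77 of 80 lay below 0, with a median of −0.30. The 12 mitochondrially encoded genes tested all lay above 0, with a median of 0.50 and none called. Myoz2 was at −3.13 and Bdh1, of ketone body use, at −3.54. Myl2, the slow regulatory light chain, had the most extreme ratio, −8.85 (−11.90 to −6.99), but its 477 UMIs lay in 10 of 52 Myh2-dominant droplets. Pcp4l1, Fxyd6, Nupr1, Pla2g12a and Dgat2 were the other leading lower genes. Mb at −0.75 (−0.80 to −0.70), Cox8b at −0.66, Myot at −0.29 and Hspb7 at −0.48 were lower by less than 2-fold.

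Non-coding RNAs of the MyHC cluster also followed the isoforms. 9430073C21Rik is an antisense RNA at chr11:67195680-67199234 on the minus strand. It starts 818 bases before the Myh1 start and overlaps Myh2 by 1838 bases. Distances to genes are measured from the gene coordinates given above and not from the RefSeq starts of the promoter windows. 9430073C21Rik was found in 19 of 135 sham members (14.1%, 8.69% to 21.1%) on 38 UMIs. It was found in 0 of 288 Myh4-dominant droplets (interval up to 1.27%) and in 0 of 52 Myh2-dominant droplets (interval up to 6.85%). These limits are for droplets with a UMI and not for droplets that express the RNA. With 3 counts set for each class at 0, its level of 43.9 CPM in members was 25.8-fold that of Myh4-dominant and 6.55-fold that of Myh2-dominant droplets. The lower ends of the intervals were 4.32 and 2.34 on the log2 scale. Members with Myh4, with Myh1 alone and with Myh2 had it in 8 of 54, 7 of 56 and 4 of 25 droplets. Outside the fibre droplets it was found in 2 of 619 sham droplets (0.323%), in 0 of 20 sham droplets with Pdgfra UMIs at a median of 12414.5 UMIs, and in 50 of 3821 MOV droplets (1.31%), and in MOV it was found in 2 of 15 members. The RNA is sparse: after thinning to 500 UMIs it remained in 1 of 135 sham members.

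Myhas, the antisense RNA at chr11:67211256-67237573 between Myh1 and Myh4, starts 456 bases before the Myh4 coordinates and overlaps Myh1 by 13320 bases. Its start lies inside the Myh4 promoter window shown above, which was set by the RefSeq start. Myhas was found in 111 of 288 Myh4-dominant droplets (38.5%) and in 14 of 54 members with Myh4. It was found in 1 of 56 members with Myh1 alone, 0 of 25 with Myh2 and 1 of 52 Myh2-dominant droplets. 2310065F04Rik, a long intergenic RNA at chr11:67112461-67120080, 50947 bases before Myh2, was found in 62.5% of Myh4-dominant droplets, in 57.4%, 58.9% and 48.0% of the 3 kinds of member, and in 21.2% of Myh2-dominant droplets. The strand setting of the counting is not given in the sources used here, and without it reads of a gene and its antisense partner cannot be told apart.

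**Figure D4:**
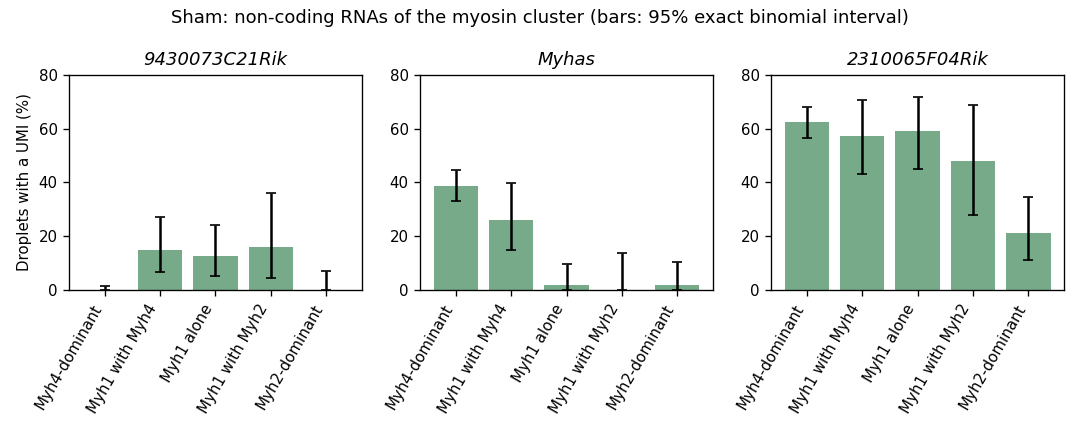
Share of sham droplets with at least 1 UMI (vertical axis, %) of 3 non-coding RNAs of the MyHC cluster in the 5 isoform classes, with 95% exact binomial intervals. 9430073C21Rik is at 0 in both neighbouring classes, Myhas drops from 38.5% in Myh4-dominant droplets to 0 of 25 members with Myh2, and 2310065F04Rik is at 21.2% in Myh2-dominant droplets.

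In the MOV library the same comparisons had few droplets behind them. Against the 9 Myh4-dominant MOV droplets, 16 of 219 genes were called higher in the 15 members (7.31%), with a median log2 ratio of 0.11. None could be called lower, since that needed 10 droplets of the other class. Mb was higher by 2.73 (1.48 to 4.37), at 2490 against 375 CPM, Ankrd1, a stretch-responsive sarcomere protein, by 3.54 and Csrp3, the muscle LIM protein, by 2.20. Fhl1, Myl12a, Cryab, Vim, Pdlim3 and Cycs were among the others. Pfn1, with no UMI in the Myh4-dominant class, was 2.21-fold higher with 3 counts set for that class. As 8 of those 9 droplets share barcodes with deeper sham droplets, the comparison without them is against 1 droplet, and 13 genes were then called. Mb was then at 3.28, Ankrd1 at 2.80 and Csrp3 at 1.46, while Fhl1 at 0.92, Cryab at 0.53 and Pdlim3 at 0.54 were under 2-fold. Pfn1, again with 3 counts set for the class at 0, was then at 0.40 on the log2 scale, with an interval from 0.03 upward.

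Against the 8 Myh2-dominant MOV droplets, 14 of 220 genes were called higher (6.36%), with a median of −0.07. Pvalb was higher by 3.06 (1.95 to 4.36) and Actn3 by 2.05, and both were higher against this class in sham too, on other droplets. Ttn was higher by 2.84, and Xirp2, Bin1, Nrap, Ankrd23 and Adssl1 by 1.12 to 1.39. Ankrd1 was higher by 1.05 and Vim by 1.03, and Vim changed direction under other settings (−0.28 without the droplet richest in it).

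MOV members compared with sham members had more RNA for Z-disc, stretch-linked and small heat shock proteins and less for respiration and fat use. Of 3169 genes, 36 were called higher in MOV (1.14%) and 174 lower (5.49%), with a median log2 ratio of 0. Scaling by trimmed means would shift all of these ratios by −0.13. Csrp3 ran from 0 to 19401 CPM over the 15 MOV members with a median of 3090, and from 0 to 16165 over the 135 sham members with a median of 0. Summed, it was at 11051 against 657 CPM, a log2 ratio of 4.07 (3.92 to 4.23). Ankrd1 had a median of 555 CPM and a highest value of 7435 in MOV, and a median of 0 and a highest of 3930 in sham. It was found in 10 of 15 and 11 of 135 members, with a log2 ratio of 4.79 (4.41 to 5.18). For both genes the ranges of single droplets overlapped.

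Of 24 Z-disc and small heat shock genes, 10 were higher and none lower, with a median of 1.37. They were Cryab, Csrp3, Des, Fhl1, Hspb1, Hspb7, Hspb8, Nrap, Pdlim3 and Xirp2. Hspb1, a small heat shock protein that protects the cytoskeleton, had a median of 7736 CPM over MOV members and 522 over sham members, and a log2 ratio of 2.90 (2.78 to 3.02). Hspb7 went from 756 to 3444 CPM, a log2 ratio of 2.19 (1.97 to 2.40), with medians over droplets of 246 in sham and 2628 in MOV. The list took 2.84% of all UMIs in sham members and 8.61% in MOV members. Of 18 genes linked to overload or atrophy, 7 were higher (Ankrd1, Csrp3, Klhl41, Mt1, Mustn1, Myf6 and Smpx) and Asb2 was lower.

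Other leading genes belong to many cell types. Vim, the intermediate filament of mesenchymal and immature muscle cells, was higher by 6.27 (5.25 to 7.47), with UMIs in 10 of 15 and 5 of 135 members. S100a6 was higher by 4.87, Crip1 by 4.26, the translation factor Eef1a1 by 4.03 and Tmsb10 by 3.61. Car3, the muscle carbonic anhydrase, had UMIs in all 15 MOV members and was higher by 2.49. Beside these values, at least 3 UMIs of the other cell types' markers were found in 11 of 15 MOV members, against 19 of 135 sham members, most often from the fibro-adipogenic list (7 of 15), and Pdgfra stayed at 0. A single deep MOV member also held most of the 103 UMIs of the myocyte list, which includes Myl4. Without droplets holding such UMIs, 4 MOV members were left, which is under the 10 droplets needed to call a gene higher. The part of other cells or of free RNA was not tested.

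**Figure D5:**
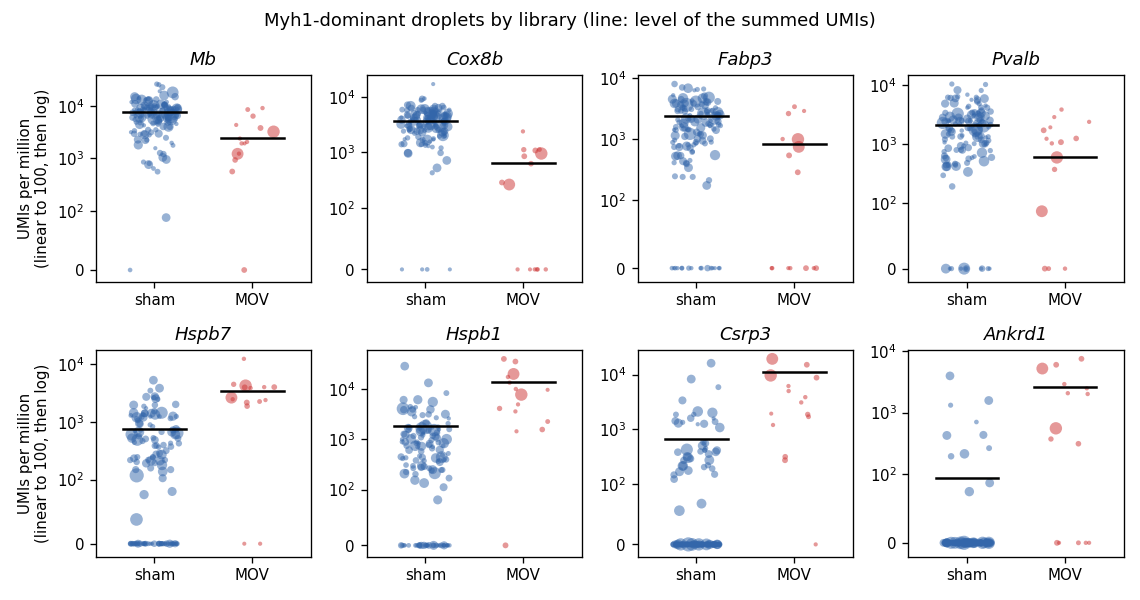
Level of 8 genes (vertical axes, CPM, linear to 100 and then log) in each Myh1-dominant droplet of the sham (135) and MOV (15) library, with larger points for deeper droplets and a line at the level of the summed UMIs. Cox8b in MOV stays at or below 2387 and Hspb1 has a median of 7736 in MOV against 522 in sham, and the ranges overlap for every gene shown.

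Respiratory genes were lower in MOV. Of 80 nuclear respiratory chain genes, 35 were called lower and none higher, with a median of −0.95, and their share of UMIs was 13.8% in sham and 6.87% in MOV members. Cox8b was at 3751 CPM in sham and 650 in MOV, a log2 ratio of −2.53 (−2.98 to −2.11), and no MOV droplet exceeded 2387 CPM where the sham median was 3636. Mb was at 7435 and 2490 CPM, a log2 ratio of −1.58 (−1.80 to −1.36), with medians over droplets of 6577 and 2060. Of 20 TCA and shuttle genes 9 were lower, with a median of −0.93. Pdk4 had 208 UMIs in sham members and none in MOV members, and was 5.80-fold lower with 3 counts set for MOV. Ldhb had 208 UMIs and 1, a log2 ratio of −4.12. Myot, by contrast, had a ratio of 0.13 (−0.19 to 0.44).

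Fast-fibre genes were also lower, among them Pvalb at −1.84, the glycogen phosphorylase Pygm at −2.75, the calcium pump Atp2a1 at −2.12 and 2310065F04Rik at −4.25 on the log2 scale. Malat1 was at −3.80, mt-Nd3 at −3.00, Gm42418, which overlaps ribosomal RNA, at −2.40 and Cox7a1 at −2.20. Of 16 calcium-handling genes 5 were lower and of 19 glycolysis genes 3. Some lists depended on the 2 deepest MOV members. Without them the fat oxidation median went from −1.32 with 10 of 24 called lower to −0.29 with 5 called, and the mitochondrially encoded median from −1.05 with 5 of 12 called to 0.16 with 1 called. The respiratory chain median was −1.16 with 47 called lower, Csrp3 was at 2.83, Ankrd1 at 4.66, Hspb7 at 2.16, Cox8b at −2.42 and Mb at −1.35, and Myot turned to −0.54 (−1.26 to 0.09).

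The same library contrast in the neighbouring classes stands beside these values without a test of the difference. Cox8b had a log2 ratio of −1.81 in Myh4-dominant and −2.69 in Myh2-dominant droplets, and Mb of −1.24 and −1.72. The respiratory chain list had a median of −0.21 in Myh4-dominant droplets, 8 of 9 of which share barcodes in MOV, and −1.02 in Myh2-dominant droplets. Over all tested genes the median was 0 in the Myh4-dominant and −0.36 in the Myh2-dominant class, which bears on every list median given here. The Z-disc and small heat shock list had medians above 0 in these classes too, of 1.03 and 0.71. No gene could be called higher there with 9 and 8 MOV droplets, and Tcap was called lower in both. The share of UMIs of this list was 2.03% in sham and 4.43% in MOV for Myh4-dominant and 3.50% and 7.36% for Myh2-dominant droplets.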

How the data were processed

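Droplet RNA sequencing (10x Genomics, 3′ assay) was run on cells sorted from plantaris muscle, with 1 sham and 1 MOV library. Reads were mapped by the authors with Cell Ranger 6.0.0 on the mm10 build, and they deposited filtered matrices of whole-number UMI counts for 32285 genes, with no normalization. The submitters' notes also name R 4.0.2 and Seurat 4.0.2, whose output is not used here. There were 0 sample columns without a label.

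Members were selected by the rule given in the report, and no doublet caller was run. The members, gene lists and comparisons were chosen with earlier results of these data known. UMIs were summed over the droplets of a class and scaled to all UMIs of that class (CPM). Ratios have exact conditional intervals, levels Poisson intervals and shares Clopper-Pearson intervals, all at 95%. A class with no UMI was set to 3 counts over the class. The call rule is that of the report, and no test, p-value or spread between replicates was available. Named genes were the 5 markers, the genes of the rule, the 10 genes leading each direction by the interval bound nearest 0, up to 4 of the most abundant genes of each list, 5 checks of cell type, and the 10 genes most like the Myh1 share. List members called in a comparison are named as well, and Myhas was added after its values were seen. Thinned droplets had 500 UMIs. The ratio and its calls were run on simulated Poisson sums, without the condition of 10 droplets. The simulation had no spread between droplets, so it cannot show how the intervals behave where few droplets hold a gene's UMIs. Analyses used Python 3.11.15, numpy 2.4.6, scipy 1.17.1, pandas 2.3.3 and matplotlib 3.10.9, and scaling alternatives edgeR 4.0.16 and DESeq2 1.42.0 in R 4.3.3. Coordinates and promoter windows are from RefSeq tables and an annotation of the same build.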

Additional observations from a re-analysis of the deposited data

Results flagged for a closer look

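In 8 cases a gene had ratios of opposite sign in a pair of contrasts, at least 1 log2 unit apart, and no difference between the contrasts was tested. Between MOV and sham, Fos was at −0.86 in Myh1-dominant and 0.84 in Myh2-dominant droplets, and Myoz2 at 1.57 and −0.77. Myoz2 rested on 47 UMIs in 5 of 15 MOV members.

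Between Myh1- and Myh4-dominant droplets, Car3 was at −1.03 in sham and 0.65 in MOV, Gm42418 at 0.15 and −1.14, and Pdlim3 at −0.42 and 1.17. Of the 9 Myh4-dominant MOV droplets behind these values, 8 share barcodes with deeper sham droplets, and 1 droplet held 81.4% of the Car3 and 92.0% of the Pdlim3 UMIs of that class.

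Between Myh1- and Myh2-dominant droplets, Eef1a1 was at 2.75 in sham and −0.61 in MOV, Fos at 0.60 and −1.10, and Tnnt1, the slow troponin T, at −2.95 and 2.03. All 29 Tnnt1 UMIs of the MOV members lay in 1 of 15 droplets, and 1 of 8 Myh2-dominant MOV droplets held 81.7% of the Fos UMIs of that class.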

How the results depend on the processing

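No paired analysis was possible because each condition has 1 library and no result comes from a test. With at least 10 MyHC UMIs required, the sham members were 78 of 332 fibre droplets (23.5%) against 28.1%. Calls in sham against the Myh4-dominant class were 419, 640 with no filter on low counts, and 1000 (380 higher, 620 lower) with the mean of droplet CPM, where every droplet weighs the same. Against the Myh2-dominant class they were 341, 549 and 814 (427 higher, 387 lower). In MOV against the Myh4-dominant class, calls were 16, then 121 with no filter, 60 with mean CPM, 9 without the richest droplet of each gene, 5 with droplets of at least 1000 UMIs and 10 without the 2 deepest MOV members. Against the Myh2-dominant class they were 14, then 279 with no filter, 30 with mean CPM, 7 with a lead of at least 2 times, 1 with at least 1000 UMIs and 27 without the 5% deepest fibre droplets. Between MOV and sham members calls were 210, then 831 (657 higher, 174 lower) with no filter, 863 (44 higher, 819 lower) with mean CPM, 80 without droplets of other cell types' markers, and 122 (20 higher, 102 lower) without the 2 deepest MOV members. Of the genes named singly, Cycs in MOV against Myh4-dominant droplets turned to −0.49 without droplets of other cell types' markers, and Vim in MOV against Myh2-dominant droplets to −0.28 without its richest droplet and −0.40 without droplets of other cell types' markers. Causes were not tested, beyond fewer droplets where some were left out. Leaving out the 2 deepest MOV members and the shared barcodes was chosen after seeing the data. Trimmed-mean scaling shifted all ratios of MOV members against Myh4-dominant droplets by −0.12 and against sham by −0.13. The MOV members had a median of 1776 UMIs and the Myh4-dominant MOV droplets 673.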

Other observations

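Some genes chosen after their values were seen, and not on any list, had levels between those of both neighbouring classes in sham. Odc1 and Sms, enzymes of polyamine synthesis like Amd1, were at 89.0 and 172 CPM in Myh1-dominant droplets, at 189 and 382 in Myh4-dominant and at 40.3 and 53.7 in Myh2-dominant droplets. Amd1 itself was at 106, 579 and 47.0 CPM in the same order. Their log2 ratios against Myh4-dominant droplets were −1.08 (−1.46 to −0.72) for Odc1 and −1.15 (−1.41 to −0.89) for Sms, and against Myh2-dominant droplets 1.14 (0.39 to 1.97) and 1.68 (1.05 to 2.37). In MOV members Odc1 had 10 UMIs in 6 of 15 droplets and Sms 11 UMIs in 3, and neither ratio to sham had an interval clear of 0, at 0.64 (−0.48 to 1.59) and −0.18 (−1.21 to 0.70).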
